A study of Mus musculus with 28 samples.

Results

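The enzymes and regulators of fatty acid oxidation and ketone body formation were followed in liver RNA of 2 mouse models of non-alcoholic steatohepatitis. The set held 36 genes of the 20416 genes in each of the 3 deposited tables, and all 36 were found in every table. The genes were chosen by gene symbol for their known roles, with earlier results of these data known. It held 19 mitochondrial genes (5 of entry into the mitochondrion, 11 of the oxidation cycle and 3 of electron transfer), 10 peroxisomal genes, 4 acyl-CoA thioesterases, 1 ketone enzyme and 2 regulators. All samples were whole liver of male C57BL/6 mice with no engineered allele named in the labels, and messenger RNA was selected by its poly(A) tail and sequenced. The MCD group received a diet deficient in methionine and choline and had 4 samples. The CD group, also with 4 samples, received the matched control diet. The sample titles give 4 weeks for both diets, whereas another label gives 5 weeks. The STAM groups had 5 samples at 4 weeks and 5 at 10 weeks of age, from mice injected soon after birth with streptozotocin, a toxin of insulin-producing cells, and given a high-fat diet beginning at week 4, which is the age of the younger mice. The Ctrl groups, 5 samples at each age, received a control diet. Whether every sample is a separate mouse is not stated in the labels. The p-values therefore reflect variation among samples that may be technical, and a liver in the results below means 1 sample.

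In the liver, fatty acids are oxidised in mitochondria and, for very long and branched chains, in peroxisomes. Entry into the mitochondrion depends on a carnitine shuttle, and each turn of the cycle needs a dehydrogenase, a hydratase, a second dehydrogenase and a thiolase, with electrons passed on through the electron transfer flavoprotein. Acetyl-CoA left over in fasting becomes ketone bodies. Thioesterases release free fatty acids from acyl-CoA, and many genes of these steps are targets of PPARα, a nuclear receptor that senses fatty acids and binds repeats of the element AGGTCA.

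Among the genes that differed most in MCD livers were 3 acyl-CoA thioesterases of 1 cluster. Acot2 (chr12:83987861-83993875), Acot1 (chr12:84009502-84017669), Acot4 (chr12:84038379-84044723) and Acot3 (chr12:84052151-84059564) stand in this order on the plus strand of chromosome 12 within 71.704 kb (mm10, positions of the deposited tables with 1 added to the start). Acot2 encodes the mitochondrial enzyme, Acot1 the cytosolic one, and Acot3 and Acot4 peroxisomal ones. Their promoters are printed because the genes are neighbours and 3 of them moved together, and that of Cpt1a because it was the entry gene with the smallest adjusted p at 10 weeks. Each runs from 250 bases before the RefSeq start to 50 after it (GRCm38.p6), with capitals for any AGGTCA element on either strand, read as TGACCT where it lies on the opposite strand.
Acot2, chr12:83987611-83987910, plus strand: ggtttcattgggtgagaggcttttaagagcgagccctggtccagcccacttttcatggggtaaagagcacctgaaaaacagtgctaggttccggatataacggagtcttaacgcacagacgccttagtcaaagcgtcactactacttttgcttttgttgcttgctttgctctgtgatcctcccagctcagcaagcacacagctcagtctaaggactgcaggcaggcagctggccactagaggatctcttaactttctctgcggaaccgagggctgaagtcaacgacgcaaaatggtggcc
Acot1, chr12:84009252-84009551, plus strand: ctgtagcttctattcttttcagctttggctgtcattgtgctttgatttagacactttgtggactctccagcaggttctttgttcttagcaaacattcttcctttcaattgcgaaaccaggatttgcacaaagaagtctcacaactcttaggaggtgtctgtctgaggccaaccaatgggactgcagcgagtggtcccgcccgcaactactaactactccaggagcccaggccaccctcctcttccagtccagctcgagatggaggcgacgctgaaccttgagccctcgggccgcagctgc
Acot4, chr12:84038129-84038428, plus strand: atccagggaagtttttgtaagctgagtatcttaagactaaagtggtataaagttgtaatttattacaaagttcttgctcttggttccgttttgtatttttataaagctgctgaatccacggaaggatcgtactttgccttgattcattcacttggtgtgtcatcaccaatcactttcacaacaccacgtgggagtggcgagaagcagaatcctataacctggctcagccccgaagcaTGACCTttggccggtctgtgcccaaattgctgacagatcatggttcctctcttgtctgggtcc
Acot3, chr12:84051894-84052193, plus strand: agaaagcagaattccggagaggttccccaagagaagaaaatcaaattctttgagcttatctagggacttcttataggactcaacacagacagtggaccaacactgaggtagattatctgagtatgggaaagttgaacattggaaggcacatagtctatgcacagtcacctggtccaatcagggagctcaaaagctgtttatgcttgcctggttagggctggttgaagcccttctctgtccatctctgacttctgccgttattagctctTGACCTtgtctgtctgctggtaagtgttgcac
Cpt1a, chr19:3323051-3323350, plus strand: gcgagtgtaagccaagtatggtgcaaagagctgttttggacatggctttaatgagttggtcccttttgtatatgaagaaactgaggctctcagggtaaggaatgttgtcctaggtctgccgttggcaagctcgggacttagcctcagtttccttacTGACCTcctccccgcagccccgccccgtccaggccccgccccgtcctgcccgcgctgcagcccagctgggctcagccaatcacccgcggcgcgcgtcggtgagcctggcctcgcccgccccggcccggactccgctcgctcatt
The Acot2 and Acot1 windows held no such element, whereas Acot4 held 1 beginning at base -13, Acot3 held 1 just past its start and Cpt1a held 1 at base -94. Promoters were found for 31 of the 36 genes, and 6 of these 31 (19.4%) held an AGGTCA element: Acadm, Echs1, Acadvl, Acot4, Acot3 and Cpt1a. The share among all 32851 promoters of this length was 16.3%. The direct repeat of AGGTCA with 1 free base between the copies, searched on both strands, was in none of the 31 and in 0.0396% of all promoters. A looser form, with the T of each copy free, was also in none of the 31 and in 0.381% of all. These matches describe letters in a 300-base window and say nothing of binding.

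Values are CPM (reads per 1 M reads) after the authors' scaling within each table, at 16.2 to 25.9 M recovered reads per library, where 3 reads equal at most 0.200 CPM. That scaling multiplied library sizes by 1.11 to 1.23 in MCD and 0.832 to 0.899 in CD livers, by 1.01 to 1.05 in STAM and 0.956 to 0.990 in Ctrl livers at 4 weeks, and by 1.05 to 1.16 in STAM and 0.878 to 0.939 in Ctrl livers at 10 weeks. Had libraries been scaled to total reads instead, the median over all genes would have shifted up by 0.42 (log2) for the diet, 0.08 at 4 weeks and 0.29 at 10 weeks, so small differences depend on the scaling. As a share of all reads, the 36 genes together took 0.83% ± 0.0386 in MCD and 0.702% ± 0.0671 in CD livers (SD, n = 4 each). The share was 1.02% ± 0.0666 in STAM and 0.978% ± 0.0510 in Ctrl livers at 4 weeks, and 1.5% ± 0.121 in STAM and 0.979% ± 0.149 in Ctrl livers at 10 weeks (SD, n = 5 each). On the scaled level the diet order was the other way, with a sum of 7155 ± 355 CPM in MCD and 8132 ± 848 CPM in CD livers (SD, n = 4 each). Ctrl replicate 1 at 10 weeks was the lowest of its group for 29 of the 36 genes and STAM replicate 5 at 10 weeks the highest of its group for 16, so results at 10 weeks are also given without both. Other libraries also stood at 1 end of their group. CD replicate 2 was the highest for 33 of the 36 genes and Ctrl replicate 2 at 10 weeks for 23, and STAM replicate 4 at 10 weeks was the lowest for 21. Each library was also left out in turn.

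The samples had liver's defining transcripts, and some markers of other liver cells differed between the groups, not in every list or comparison. Of 12 hepatocyte markers, 1 was higher and 8 lower in MCD livers, with summed levels of 89444 to 119062 CPM in MCD and 115620 to 137222 CPM in CD livers. At 4 weeks none was higher and 3 lower (130645 to 144667 CPM in STAM, 158434 to 177698 CPM in Ctrl livers), and at 10 weeks none was higher and 8 lower (63401 to 81999 CPM in STAM, 109554 to 135482 CPM in Ctrl livers). With total-read scaling 4 were higher and 6 lower in MCD livers, 0 and 2 at 4 weeks, and 0 and 4 at 10 weeks. With quantile normalization the counts were 3 and 3, 0 and 2, and 1 and 3, so most of these lower calls depend on the scaling. Of 9 macrophage markers, 6 were higher in MCD livers (706 to 1269 CPM in MCD, 392 to 627 CPM in CD livers), 8 in STAM livers at 4 weeks (592 to 815 CPM in STAM, 406 to 547 CPM in Ctrl livers) and 8 at 10 weeks (599.98 to 788 CPM in STAM, 398 to 577 CPM in Ctrl livers), and none was lower. Of 8 stellate cell and fibroblast markers, 7 were higher in MCD livers, none was called at 4 weeks, and 7 were higher and 1 lower at 10 weeks. Of 5 cholangiocyte markers 4, 3 and 4 were higher, and of 6 lymphocyte markers 1, 1 and 2. The lymphocyte calls were Ptprc each time, joined by Cd8a at 10 weeks. Of 6 endothelial markers 0, 0 and 3 were higher and 2, 2 and 1 lower. With quantile normalization the higher cholangiocyte markers were 1, 3 and 1. For endothelial markers in MCD livers the counts turned to 3 higher and 0 lower with total-read scaling, and were 1 and 1 with quantile normalization. Muscle markers, which bear on Cpt1b, summed to at most 1.20 CPM in every library. Myh6 was at 0 in all MCD livers, all STAM livers and all Ctrl livers at 10 weeks. Acta1 was the 1 muscle marker called, higher in STAM livers at 4 weeks (3.64, limma adjusted p = 0.00327). Adipocyte markers, none called, summed to 0.597 to 18.1 CPM in STAM and 1.03 to 6.12 CPM in Ctrl livers at 10 weeks. Pancreatic acinar markers, 1 called higher and 1 lower, summed to 9.87 to 13.9 CPM in MCD and 37.8 to 50.1 CPM in CD livers. In whole liver, fewer cells of a type and less RNA per cell cannot be told apart, and the part of cell composition in the results below was not tested.

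In MCD livers, the thioesterases Acot2 and Acot3 rose most, Pdk4, Acot4 and Pex11a rose with them, and the rest of the pathway split. Of the 36 genes, 8 were higher and 12 lower at a limma adjusted p under 0.05, and 16 were not called. The groups did not overlap for 16 of the 36, against 40.1% of all genes. Across all 15312 genes tested, 42.7% were called, 22.6% higher and 20.1% lower, beside 20 of the 36 here. The median log2 fold change was -0.06 for the 36 genes and 0.07 for all genes. All 8 higher calls (Crat, Acadl, Acadm, Acot2, Acot3, Acot4, Pdk4 and Pex11a) held with total-read and with quantile scaling. Of the 12 lower calls, Acad11 alone held under both, and 6 kept a negative sign under both. Of all called genes, 52.9% were higher as deposited, 86.1% with total-read scaling and 49.8% with quantile normalization.

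**Figure D1:**
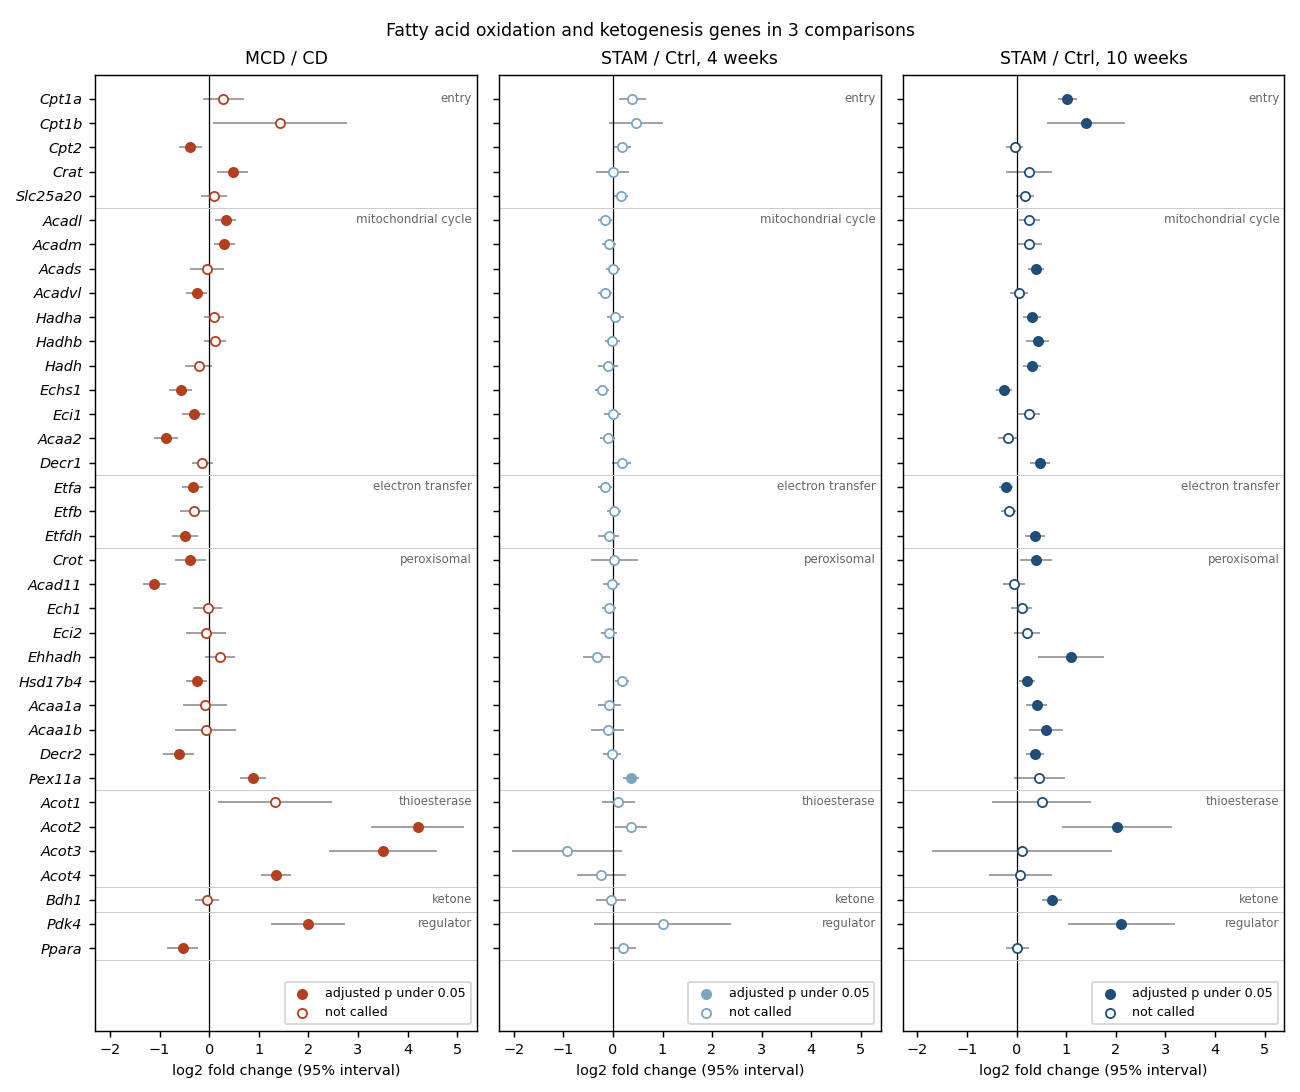
Log2 fold change (x axis) of each of the 36 genes (y axis, grouped by role) for MCD over CD, STAM over Ctrl at 4 weeks and STAM over Ctrl at 10 weeks. Points are limma estimates, bars 95% intervals and filled points adjusted p-values under 0.05; Acot2 and Acot3 lie farthest right in the diet panel at 4.20 and 3.51, the 4-week panel has 1 filled point (Pex11a), and the 10-week panel has 17 filled points right of 0.

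Acot2 measured 15.7, 30.5, 16.7 and 43.7 CPM in MCD livers, against 1.22, 2.58, 1.27 and 0.734 CPM in CD livers. The groups were far apart, with every MCD liver several times above the highest CD liver (log2 fold change of 4.2, 95% interval 3.27 to 5.14, limma adjusted p = 3.79e-05; 18.4-fold). Acot3 measured 12.9, 15.9, 17.6 and 27.9 CPM in MCD livers, against 2.13, 3.41, 1.32 and 0.601 CPM in CD livers. Its groups also did not overlap (log2 fold change of 3.51, 95% interval 2.42 to 4.6, limma adjusted p = 0.000386; 11.4-fold). Acot4 measured 61.5, 79.9, 67.5 and 75.7 CPM in MCD livers, against 30.4, 34.4, 25.5 and 22.6 CPM in CD livers, and again no MCD liver fell within the CD range (log2 fold change of 1.35, 95% interval 1.05 to 1.64, limma adjusted p = 8.88e-06). Acot1, the cytosolic member between them, measured 6.13, 7.21, 5.65 and 12.8 CPM in MCD livers, against 4.57, 7.03, 1.71 and 1.47 CPM in CD livers. The groups overlapped through CD replicate 2, and the difference was not called (log2 fold change of 1.32, 95% interval 0.18 to 2.47, limma adjusted p = 0.0623), although it was called without CD replicate 2 (limma adjusted p = 0.00743) and after scaling to total reads (1.75, limma adjusted p = 0.0149). The authors' deposited adjusted p-value for Acot1 was also under 0.05, with a log2 fold change of 1.1. The Acot1 and Acot2 transcripts are 81.7% identical, but no exact stretch of 50 or more bases was shared between Acot2 and another gene. Acot3 shares 12.5% of its transcript bases with the overlapping gene Gm49366, so part of its counts is uncertain.

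**Figure D2:**
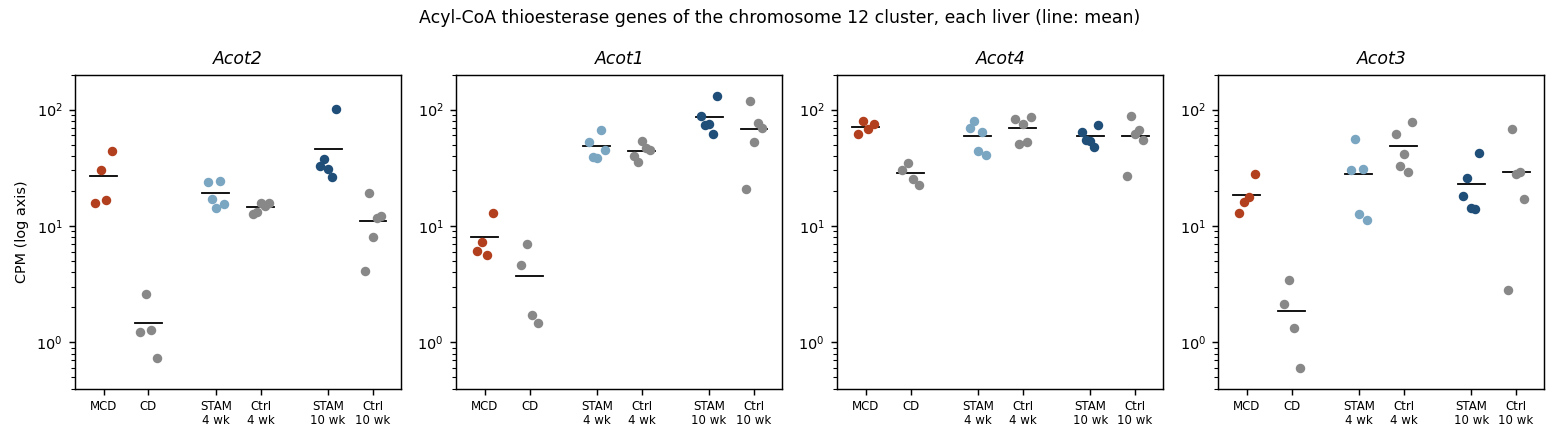
CPM on a log axis for Acot2, Acot1, Acot4 and Acot3 in every library, MCD beside CD and STAM beside Ctrl at 4 and 10 weeks; points are libraries and lines group means. Acot2 reached 15.7 to 43.7 CPM in MCD and 0.734 to 2.58 CPM in CD livers, and Acot4 and Acot3 of STAM and Ctrl livers overlapped at both ages.

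Among the entry genes, the carnitine acetyltransferase Crat rose (0.47, limma adjusted p = 0.0205) and the inner-membrane transferase Cpt2 was lower (-0.39, limma adjusted p = 0.0117), although Cpt2 stood at 0.038 with total-read scaling. The Crat call was lost without MCD replicate 3 or 4 or CD replicate 1 or 4 (limma adjusted p = 0.05 to 0.0615). Cpt1a, the outer-membrane transferase that sets the rate of entry, measured 343, 585, 433 and 513 CPM in MCD livers, against 302, 489, 319 and 428 CPM in CD livers. The ranges overlapped (log2 fold change of 0.29, 95% interval -0.12 to 0.69, limma adjusted p = 0.237), but Cpt1a was called with total-read scaling (0.71) and quantile normalization (0.83). The shuttle carrier Slc25a20 (0.093, limma adjusted p = 0.561) and the muscle form Cpt1b (1.43, limma adjusted p = 0.0808) were not called. Cpt1b lay at 0.0668 to 1.41 CPM in all 8 livers and is listed with a counted length of 150 bases, and 2745 of its 2895 transcript bases are shared with the overlapping gene Gm44502.

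In the mitochondrial cycle, 2 of 11 genes were higher and 4 lower. Both higher genes encode acyl-CoA dehydrogenases. Acadm, the medium-chain enzyme, measured 351, 393, 396 and 355 CPM in MCD livers, against 271, 339.6, 302 and 297 CPM in CD livers. Every MCD liver was above every CD liver by a small margin (log2 fold change of 0.31, 95% interval 0.089 to 0.53, limma adjusted p = 0.0264), and the call was lost without MCD replicate 2 or 3 or CD replicate 1, 3 or 4 (limma adjusted p = 0.0537 to 0.0726). For the long-chain enzyme Acadl, which also rose, the log2 fold change was 0.33 (limma adjusted p = 0.018), and significance was lost without MCD replicate 2 or CD replicate 3 (limma adjusted p = 0.0519 to 0.0581). Acaa2, the mitochondrial 3-ketoacyl-CoA thiolase, was lower. It measured 370.1, 349.6, 442 and 367 CPM in MCD livers, against 713, 773, 672 and 626 CPM in CD livers. The groups did not overlap (log2 fold change of -0.87, 95% interval -1.1 to -0.63, limma adjusted p = 5.31e-05), and the difference was also called with total-read scaling (-0.44) but not with quantile normalization (-0.24, limma adjusted p = 0.0834). The short-chain hydratase Echs1 was lower (-0.58 on the log2 scale, limma adjusted p = 0.000874) but stood at -0.16 with total-read scaling, which was not called. The very-long-chain dehydrogenase Acadvl (-0.26) and the enoyl-CoA isomerase Eci1 (-0.31) were lower as deposited and had the opposite sign with total-read scaling (0.17 and 0.11). The Acadvl call was lost without any 1 of the 8 libraries (limma adjusted p = 0.0518 to 0.148) and the Eci1 call without MCD replicate 1, 2 or 4 or CD replicate 2 or 3 (limma adjusted p = 0.0645 to 0.109).

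Hadha and Hadhb encode the subunits of the trifunctional protein, and their start sites lie 273 bases apart on opposite strands of chromosome 5. Hadha measured 314, 309, 349 and 313 CPM in MCD livers, against 294, 323, 281 and 299 CPM in CD livers. The ranges overlapped through CD replicate 2 (log2 fold change of 0.1, 95% interval -0.098 to 0.3, limma adjusted p = 0.396), and Hadhb was close to it at 0.11 (limma adjusted p = 0.386). With total-read scaling, and with quantile normalization, both were called; with total-read scaling they stood at 0.53 and 0.54. The remaining cycle genes were not called: the short-chain dehydrogenase Acads (-0.049), the hydroxyacyl-CoA dehydrogenase Hadh (-0.21) and the dienoyl-CoA reductase Decr1 (-0.14).

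Of the electron transfer genes, the flavoprotein subunit Etfa (-0.34, limma adjusted p = 0.0177) and its oxidoreductase Etfdh (-0.48, limma adjusted p = 0.00602) were lower, and the subunit Etfb (-0.3, limma adjusted p = 0.0844) was not called, except without MCD replicate 4 (limma adjusted p = 0.0354) or CD replicate 4 (limma adjusted p = 0.0477). With total-read scaling Etfa stood at 0.087 and Etfdh at -0.059, neither called. Etfb shares 51.1% of its transcript bases with the overlapping gene Gm45233, so its counts are uncertain.

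Of the 10 peroxisomal genes, 1 was higher and 4 lower. Acad11, an acyl-CoA dehydrogenase that also acts on hydroxylated fatty acids, measured 211, 212, 248 and 199 CPM in MCD livers, against 428, 531, 461 and 458 CPM in CD livers. The MCD livers lay in a narrow band well below every CD liver (log2 fold change of -1.11, 95% interval -1.34 to -0.88, limma adjusted p = 5.38e-06; 2.16-fold lower). Pex11a, which drives peroxisome division, measured 56.5, 63.1, 63.3 and 71.5 CPM in MCD livers, against 33.7, 42.9, 30.4 and 32.3 CPM in CD livers. It rose with no overlap (log2 fold change of 0.88, 95% interval 0.62 to 1.14, limma adjusted p = 9.34e-05). The reductase Decr2 measured 96.4, 108, 127 and 94.1 CPM in MCD livers, against 142, 210.5, 136 and 167 CPM in CD livers, all MCD livers below all CD livers (log2 fold change of -0.61, 95% interval -0.92 to -0.3, limma adjusted p = 0.00449), a difference of -0.19 that was not called with total-read scaling. The carnitine octanoyltransferase Crot (-0.38, limma adjusted p = 0.0472) and the multifunctional enzyme Hsd17b4 (-0.25, limma adjusted p = 0.0494) were just past the threshold as deposited and positive in sign with total-read scaling (0.039 and 0.17). Their calls were lost, for Crot without MCD replicate 1, 3 or 4 or CD replicate 2, 3 or 4 (limma adjusted p = 0.0529 to 0.121) and for Hsd17b4 without MCD replicate 1, 2 or 4 or CD replicate 2, 3 or 4 (limma adjusted p = 0.0586 to 0.13).

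The bifunctional enzyme Ehhadh measured 360.4, 424, 383 and 524 CPM in MCD livers, against 411, 415, 332 and 296 CPM in CD livers. Its ranges overlapped (log2 fold change of 0.22, 95% interval -0.093 to 0.53, limma adjusted p = 0.24), and it was called only with total-read (0.64) and quantile (0.78) scaling among the alternatives run. The thiolase Acaa1b measured 237, 197, 309 and 295 CPM in MCD livers, against 306, 404, 276 and 153 CPM in CD livers, with wide and overlapping groups (log2 fold change of -0.074, 95% interval -0.69 to 0.54, limma adjusted p = 0.845). Its paralogue Acaa1a (-0.087), the isomerases Eci2 (-0.062) and Ech1 (-0.033) were not called. The Acaa1a and Acaa1b transcripts are 92.9% identical, with no exact stretch of 50 bases in common.

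Pdk4, a kinase that switches off pyruvate dehydrogenase and so favours fat as fuel, measured 102, 137, 92.0 and 138 CPM in MCD livers, against 55.7, 23.7, 29.8 and 17.8 CPM in CD livers. The lowest MCD liver lay above the highest CD liver (log2 fold change of 2.0, 95% interval 1.25 to 2.75, limma adjusted p = 0.00141; 3.99-fold). Ppara, the nuclear receptor itself, measured 198, 206, 233 and 271 CPM in MCD livers, against 311, 419, 341 and 258 CPM in CD livers. It was lower with 1 overlapping liver (log2 fold change of -0.54, 95% interval -0.86 to -0.22, limma adjusted p = 0.0107), but not called with total-read (-0.11) or quantile (-0.13) scaling. Bdh1, the mitochondrial enzyme that interconverts the main ketone bodies, measured 282, 317, 362 and 339 CPM in MCD livers, against 339, 388, 318 and 302 CPM in CD livers. The groups overlapped (log2 fold change of -0.051, 95% interval -0.29 to 0.19, limma adjusted p = 0.741), and the sign turned with total-read (0.37) and quantile (0.43) scaling, where it was called.

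At 4 weeks, STAM livers differed little in these genes. Pex11a was the 1 gene called higher and none was called lower by limma, where 9.8% of all 15312 genes were called, 6.52% higher and 3.27% lower. The groups did not overlap for 2 of the 36, Pex11a and Echs1, against 10.1% of all genes. At an unadjusted p under 0.05 there were 11 of 36, beside 23.9% of all genes, and voom on the recovered reads gave the same counts of 1 higher and 0 lower. The median log2 fold change was -0.02 for the 36 genes and 0.01 for all genes. Pex11a measured 36.8, 37.1, 31.3, 37.0 and 35.8 CPM in STAM livers at 4 weeks, against 31.3, 27.5, 25.5, 25.9 and 28.2 CPM in Ctrl livers at 4 weeks. The lowest STAM liver was just above the highest Ctrl liver (log2 fold change of 0.37, 95% interval 0.2 to 0.54, limma adjusted p = 0.0112), and Pex11a was also called with total-read and quantile scaling. Among all genes called at this age, 66.6% were higher as deposited, 83.7% with total-read scaling and 59.8% with quantile normalization.

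Cpt1a measured 615, 533, 498, 529 and 763 CPM in STAM livers at 4 weeks, against 447, 532, 394, 380.1 and 476 CPM in Ctrl livers at 4 weeks. STAM livers tended to the upper end, but the ranges overlapped and the difference missed the threshold (log2 fold change of 0.39, 95% interval 0.12 to 0.66, limma adjusted p = 0.0694), except with total-read scaling (0.47, limma adjusted p = 0.0251). Echs1 was lower in every STAM liver than in any Ctrl liver and also missed the threshold (log2 fold change of -0.22, 95% interval -0.37 to -0.078, limma adjusted p = 0.0534), and it was called without Ctrl replicate 1 (-0.25, limma adjusted p = 0.0187) and with no filter on low values (limma adjusted p = 0.0403). Cpt2 (0.19) and Hsd17b4 (0.18) were not called as deposited, and were called higher with both total-read scaling (limma adjusted p = 0.045 for Cpt2 and 0.0322 for Hsd17b4) and quantile normalization. Pdk4 varied within both groups, with 21.7, 17.4, 39.0, 114 and 36.4 CPM in STAM livers at 4 weeks, against 8.19, 13.9, 46.5, 14.3 and 25.1 CPM in Ctrl livers at 4 weeks. STAM replicate 4 stood far above the other libraries and the groups overlapped (log2 fold change of 1.0, 95% interval -0.38 to 2.39, limma adjusted p = 0.37). For the 4 thioesterases of the set, log2 fold changes ran between -0.93 for Acot3 and 0.36 for Acot2, and none was called. The mitochondrial genes lay between -0.22 (Echs1) and 0.47 (Cpt1b), and the peroxisomal genes other than Pex11a between -0.33 (Ehhadh) and 0.18 (Hsd17b4). Bdh1 stood at -0.034 (limma adjusted p = 0.922) and Ppara at 0.2 (limma adjusted p = 0.348).

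At 10 weeks, 2 of 5 entry genes, 5 of 11 cycle genes, 6 of 10 peroxisomal genes and the 1 ketone enzyme rose in STAM livers. Limma called 17 of the 36 genes higher and 2 lower, beside 47.8% of all 15312 genes called, 25.3% higher and 22.5% lower. The median log2 fold change was 0.28 for the 36 genes and 0.05 for all genes. The groups did not overlap for 16 of the 36, against 33.1% of all genes. Acadl, Acadm, Acadvl, Cpt2, Slc25a20, Ech1, Eci1, Eci2, Ppara and Pex11a, not called as deposited, were called higher under both other scalings. Of the 17 higher calls, 16 held with total-read and quantile scaling, the exception being Cpt1b, which was called with total-read scaling and not with quantile normalization (0.62, limma adjusted p = 0.184). The 2 lower calls, Echs1 and Etfa, were lost under both. Among all genes called, 53.0% were higher as deposited, 88.1% with total-read scaling and 45.7% with quantile normalization. Without STAM replicate 5 and Ctrl replicate 1, an alternative chosen after seeing the data, the calls of Crot (0.25, limma adjusted p = 0.118) and Hsd17b4 (0.17, limma adjusted p = 0.0919) were lost and the counts were 15 higher and 2 lower.

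Cpt1a (chr19:3323301-3385733, plus strand) measured 957, 1042, 1084, 1011 and 1012 CPM in STAM livers at 10 weeks, against 451, 516, 455, 605 and 497 CPM in Ctrl livers at 10 weeks. STAM livers were tightly grouped and none came near the Ctrl range (log2 fold change of 1.02, 95% interval 0.83 to 1.22, limma adjusted p = 2.65e-06; 2.03-fold). Cpt1b measured 1.12, 1.59, 1.15, 1.68 and 4.52 CPM in STAM livers at 10 weeks, against 0.792, 0.583, 0.766, 0.422 and 0.762 CPM in Ctrl livers at 10 weeks. All STAM livers were above the Ctrl livers, 1 of them well above the rest (log2 fold change of 1.4, 95% interval 0.62 to 2.18, limma adjusted p = 0.0062), and without replicate 5 of STAM the log2 fold change was 1.06 (limma adjusted p = 0.00861). Its counted length of 150 bases and its overlap with Gm44502 leave the Cpt1b counts uncertain here too. Cpt2, Crat and Slc25a20 were not called (-0.039, 0.25 and 0.17).

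In the mitochondrial cycle, 5 of 11 genes rose and 1 was lower as deposited. Decr1, which lets unsaturated fatty acids enter the cycle, measured 299, 300.2, 291, 280.3 and 317 CPM in STAM livers at 10 weeks, against 176, 244, 205, 247 and 210.1 CPM in Ctrl livers at 10 weeks. There was no overlap (log2 fold change of 0.47, 95% interval 0.27 to 0.67, limma adjusted p = 0.000983). Both subunits of the trifunctional protein rose. Hadha measured 497, 449, 459.9, 433 and 538 CPM in STAM livers at 10 weeks, against 333, 428, 368, 398 and 389 CPM in Ctrl livers at 10 weeks, its lowest STAM liver just above its highest Ctrl liver (log2 fold change of 0.31, 95% interval 0.12 to 0.5, limma adjusted p = 0.00982), and Hadhb stood at 0.43 (limma adjusted p = 0.005). Acads (0.39, limma adjusted p = 0.000576) and Hadh (0.31, limma adjusted p = 0.0109) rose as well. Acadm measured 499, 462, 491, 438 and 499 CPM in STAM livers at 10 weeks, against 297, 487, 373, 424 and 453 CPM in Ctrl livers at 10 weeks. Its ranges overlapped through the higher Ctrl livers and it was not called (log2 fold change of 0.25, 95% interval -0.00096 to 0.5, limma adjusted p = 0.093), although it was without Ctrl replicate 2 (limma adjusted p = 0.0369) and with total-read (0.54) and quantile (0.51) scaling. Acadl (0.26, limma adjusted p = 0.0504) and Eci1 (0.24, limma adjusted p = 0.0614) missed the threshold, Acadl except without STAM replicate 4 or Ctrl replicate 2 and Eci1 except without Ctrl replicate 2 or 5. Acaa2 (-0.18, limma adjusted p = 0.0988; 0.0403 without Ctrl replicate 1) and Acadvl (0.052, limma adjusted p = 0.629) were not called. Echs1 was lower (-0.26, limma adjusted p = 0.0114) as deposited and at 0.03 with total-read scaling.

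Of the electron transfer genes, Etfdh rose (0.37, limma adjusted p = 0.00477) and Etfa was lower (-0.21, limma adjusted p = 0.0211), at 0.077 with total-read scaling. Etfb was not called (-0.16, limma adjusted p = 0.0744).

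Of the 10 peroxisomal genes, 6 rose and none fell. Ehhadh (chr16:21761285-21787834, minus strand) measured 1389, 1320.0, 1035, 679.6 and 1990.0 CPM in STAM livers at 10 weeks, against 338, 800.5, 542, 560.3 and 703 CPM in Ctrl livers at 10 weeks. STAM livers spread over a wide range, with replicate 4 below the 2 highest Ctrl livers (log2 fold change of 1.09, 95% interval 0.43 to 1.76, limma adjusted p = 0.0124; 2.14-fold). Acaa1b measured 1407, 1209.8, 1168, 1085 and 1187 CPM in STAM livers at 10 weeks, against 505, 971, 794, 893 and 943 CPM in Ctrl livers at 10 weeks. The groups did not overlap (log2 fold change of 0.59, 95% interval 0.25 to 0.93, limma adjusted p = 0.00733). Acaa1a rose by 0.4 (limma adjusted p = 0.00365), Decr2 by 0.37 (limma adjusted p = 0.00274), Crot by 0.39 (limma adjusted p = 0.0443) and Hsd17b4 by 0.2 (limma adjusted p = 0.0364). The Crot call was lost without 10-week STAM replicate 1, 2, 3, 4 or 5 or 10-week Ctrl replicate 1, 4 or 5 (limma adjusted p = 0.0527 to 0.108). The Hsd17b4 call was lost without 10-week STAM replicate 1, 3 or 5 or 10-week Ctrl replicate 1, 2, 3 or 5 (limma adjusted p = 0.0511 to 0.0956). Pex11a, the gene called at 4 weeks, measured 121, 78.2, 115, 107 and 137 CPM in STAM livers at 10 weeks, against 46.5, 115, 77.8, 88.6 and 90.0 CPM in Ctrl livers at 10 weeks. The groups overlapped and it was not called as deposited (log2 fold change of 0.45, 95% interval -0.063 to 0.97, limma adjusted p = 0.133), but it was with total-read (0.74) and quantile (0.63) scaling. Acad11 (-0.045), Ech1 (0.099) and Eci2 (0.22) were not called.

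Acot2 measured 32.6, 37.7, 30.7, 26.2 and 101 CPM in STAM livers at 10 weeks, against 4.09, 19.3, 7.99, 11.8 and 12.1 CPM in Ctrl livers at 10 weeks. All STAM livers exceeded the Ctrl livers, 1 by a wide margin (log2 fold change of 2.02, 95% interval 0.92 to 3.12, limma adjusted p = 0.00819; 4.06-fold), and without that liver the log2 fold change was 1.69 (limma adjusted p = 0.0104). The other thioesterases of the set, Acot1, Acot3 and Acot4, were not called. Outside the set, Acot6 rose (2.68, limma adjusted p = 0.000172), at 1.88 to 4.27 CPM in STAM and 0.144 to 0.798 CPM in Ctrl livers. It was 1 of 4 higher genes among the other acyl-CoA thioesterases described below, where 2 were lower. Acot1 measured 87.7, 74.1, 75.0, 61.6 and 132 CPM in STAM livers at 10 weeks, against 20.7, 118, 52.7, 76.9 and 69.7 CPM in Ctrl livers at 10 weeks, with Ctrl livers both below and within the STAM range (log2 fold change of 0.51, 95% interval -0.49 to 1.51, limma adjusted p = 0.373). Acot3 stood at 0.11 (95% interval -1.72 to 1.93, limma adjusted p = 0.922) and Acot4 at 0.071 (95% interval -0.56 to 0.71, limma adjusted p = 0.853), so their intervals include sizeable differences in either direction.

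Pdk4 measured 18.4, 17.5, 14.3, 18.5 and 75.9 CPM in STAM livers at 10 weeks, against 4.55, 7.14, 7.70, 2.81 and 6.04 CPM in Ctrl livers at 10 weeks. The STAM livers other than replicate 5 lay close together above the Ctrl livers (log2 fold change of 2.11, 95% interval 1.03 to 3.19, limma adjusted p = 0.0056), and without replicate 5 the log2 fold change was 1.68 (limma adjusted p = 0.000488). Bdh1 (chr16:31422297-31458901, plus strand) measured 450.0, 463, 431, 412 and 430.3 CPM in STAM livers at 10 weeks, against 228, 322, 244, 263 and 293 CPM in Ctrl livers at 10 weeks. STAM livers formed a narrow band above all Ctrl livers (log2 fold change of 0.71, 95% interval 0.51 to 0.91, limma adjusted p = 5.31e-05). Ppara measured 736, 562, 671, 639.9 and 646 CPM in STAM livers at 10 weeks, against 579, 677, 599, 814 and 574 CPM in Ctrl livers at 10 weeks. The ranges overlapped (log2 fold change of 0.012, 95% interval -0.22 to 0.25, limma adjusted p = 0.934), and Ppara was called with total-read (0.3) and quantile (0.31) scaling.

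**Figure D3:**
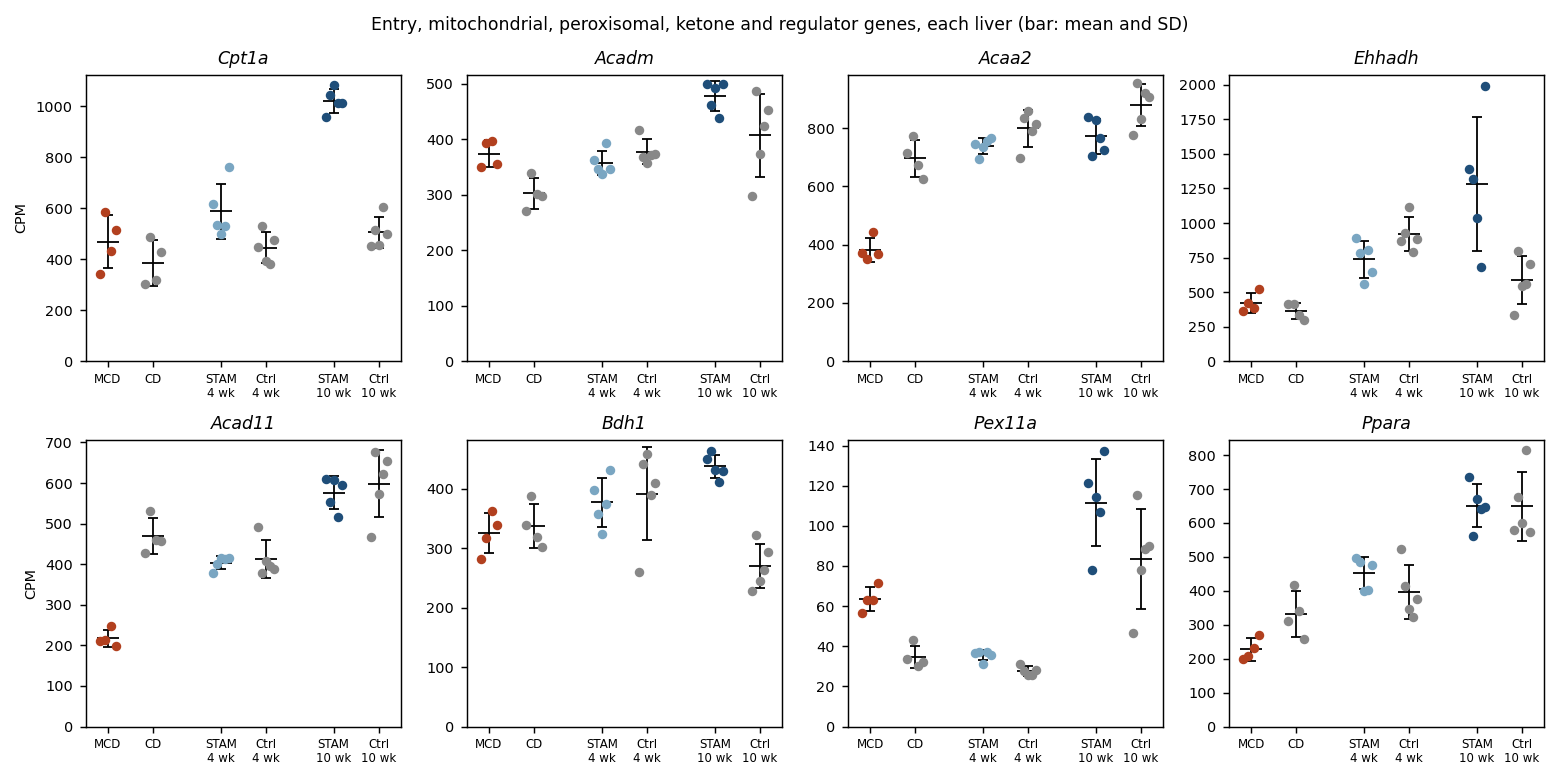
CPM of Cpt1a, Acadm, Acaa2, Ehhadh, Acad11, Bdh1, Pex11a and Ppara in every library, MCD beside CD and STAM beside Ctrl at 4 and 10 weeks; points are libraries and bars mean and SD. Cpt1a lay at 957 to 1084 CPM in 10-week STAM livers, above all 10-week Ctrl livers, and Acad11 at 199 to 248 CPM in MCD livers, below all CD livers; tables were scaled separately.

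The STAM effect itself changed between the ages. In the test of the effect at 10 weeks minus the effect at 4 weeks, which used 15022 genes, 12 of the 36 were higher and none lower (limma; 18 of 36 at an unadjusted p under 0.05, beside 33.7% of all genes, and 12 higher and 0 lower also with voom), beside 20% of all genes called, 8.89% higher and 11.2% lower. All 12 were also called with total-read and quantile scaling. The differences were 1.42 (95% interval 0.71 to 2.13, limma adjusted p = 0.00659) for Ehhadh, 0.74 (95% interval 0.38 to 1.1, limma adjusted p = 0.00552) for Bdh1 and 0.63 (95% interval 0.3 to 0.96, limma adjusted p = 0.00785) for Cpt1a. The difference for Acot2 was 1.66 (95% interval 0.57 to 2.75, limma adjusted p = 0.0313), and its call was lost without 10-week Ctrl replicate 3, 4-week STAM replicate 3 or 5 or 4-week Ctrl replicate 5 (limma adjusted p = 0.0509 to 0.057). Acadl, Acads, Hadhb, Hadh, Etfdh, Acaa1a and Decr2 differed by 0.39 to 0.48, and Acaa1b by 0.7. Single libraries decided some of these calls. Acaa1b was lost without 10-week STAM replicate 1, 2, 3 or 5, 10-week Ctrl replicate 1 or 3, 4-week STAM replicate 3 or 5 or 4-week Ctrl replicate 2 or 3 (limma adjusted p = 0.0507 to 0.0769), Hadh without 10-week Ctrl replicate 3, 4-week STAM replicate 3 or 4-week Ctrl replicate 2 or 5 (limma adjusted p = 0.0508 to 0.057), Acaa1a without 10-week Ctrl replicate 3 or 4-week STAM replicate 3 (limma adjusted p = 0.0515 to 0.0538) and Decr2 without 4-week Ctrl replicate 2 (limma adjusted p = 0.0522). Without STAM replicate 5 and Ctrl replicate 1 at 10 weeks, Acadl, Hadh, Etfdh and Acaa1b were lost. Calls gained by leaving out 1 library were Acadm without 10-week Ctrl replicate 2 and Decr1 without 4-week Ctrl replicate 1. For Pex11a the difference was 0.087 (95% interval -0.43 to 0.6, limma adjusted p = 0.841). Age and the length of the high-fat diet cannot be told apart here.

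The diet effect was then set against the STAM effect at 10 weeks (14986 genes, no shared control samples). The MCD effect was above the STAM effect for 3 genes, all thioesterases, and below it for 13, beside 27.9% of all genes called, 12.9% above and 15% below. Acot3 differed by 3.4 (95% interval 1.18 to 5.62, limma adjusted p = 0.0238), Acot2 by 2.18 (95% interval 0.67 to 3.69, limma adjusted p = 0.0318) and Acot4 by 1.27 (95% interval 0.53 to 2.02, limma adjusted p = 0.012). The Acot2 difference was lost without MCD replicate 2 or 4, CD replicate 1, 3 or 4, 10-week STAM replicate 1, 3 or 4 or 10-week Ctrl replicate 2, 4 or 5 (limma adjusted p = 0.0518 to 0.0665), and the Acot3 difference without CD replicate 4 (limma adjusted p = 0.0503). The 13 genes below were Acad11 (-1.06), Decr2 (-0.98), Etfdh (-0.85), Crot (-0.78), Bdh1 (-0.76), Cpt1a (-0.74), Acaa2 (-0.68), Decr1 (-0.61), Eci1 (-0.56), Ppara (-0.55), Hadh (-0.52), Hsd17b4 (-0.46) and Cpt2 (-0.35). Of these, Acad11, Etfdh, Hsd17b4, Acaa2, Decr1, Decr2 and Bdh1 were called under all 3 scalings. The Cpt2 call was lost without MCD replicate 1, 2 or 4, CD replicate 2 or 4, 10-week STAM replicate 1, 2, 3 or 5 or 10-week Ctrl replicate 1, 3 or 4 (limma adjusted p = 0.053 to 0.119) and the Ppara call without MCD replicate 1 or 2, CD replicate 2 or 3, 10-week STAM replicate 1 or 3 or 10-week Ctrl replicate 1, 3 or 5 (limma adjusted p = 0.0515 to 0.0858). Calls gained by leaving out 1 library were Acads without MCD replicate 3 or 4 or CD replicate 4, Acadvl without 10-week STAM replicate 4 or 10-week Ctrl replicate 2, Echs1 without MCD replicate 3 or 10-week STAM replicate 5 or 10-week Ctrl replicate 4, Ehhadh without 10-week STAM replicate 4, Acaa1a without MCD replicate 4 or CD replicate 4, Acaa1b without CD replicate 4 and Pex11a without 10-week Ctrl replicate 1. The 2 models moved Pdk4 by similar estimates, with a difference of -0.11 (95% interval -1.5 to 1.27, limma adjusted p = 0.925), an interval too wide to show that they were alike.

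**Figure D4:**
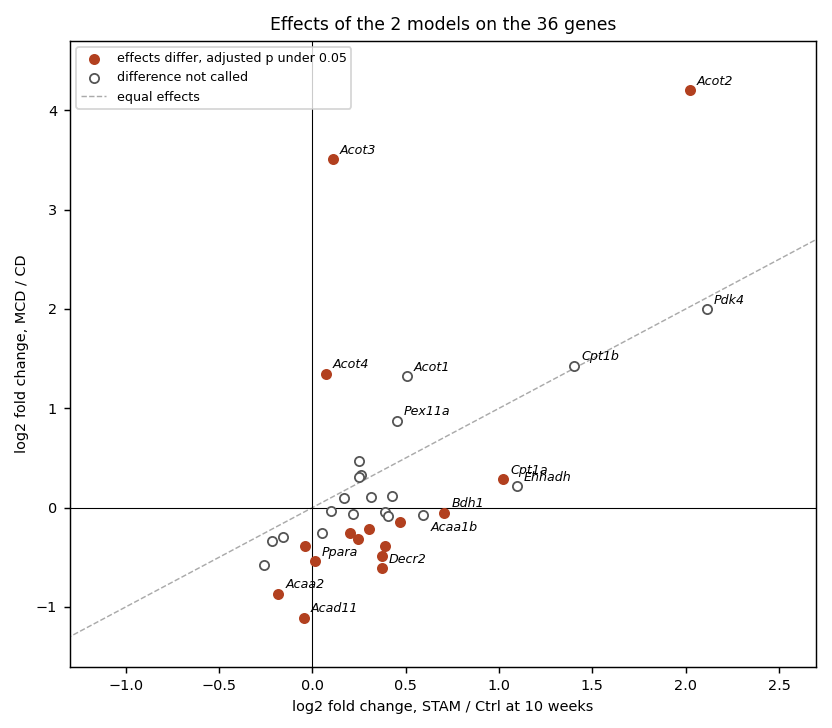
Log2 fold change of the 36 genes for MCD over CD (y axis) against STAM over Ctrl at 10 weeks (x axis); each point is 1 gene, filled where the 2 effects differed at a limma adjusted p under 0.05, and the dashed line marks equal effects. Acot2, Acot3 and Acot4 lie above the line, and the 13 filled points below it include Acad11, Decr2, Etfdh, Bdh1 and Cpt1a.

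Against the STAM effect at 4 weeks (14962 genes), the MCD effect was above for 6 genes and below for 7, beside 26.1% of all genes called, 11.7% above and 14.4% below. The 6 were Acot3 (4.44), Acot2 (3.84), Acot4 (1.58), Pex11a (0.51), Acadl (0.49) and Acadm (0.39), and all were called under the 3 scalings. The 7 were Acad11 (-1.08), Acaa2 (-0.76), Ppara (-0.74), Decr2 (-0.59), Cpt2 (-0.58), Hsd17b4 (-0.43) and Echs1 (-0.36), of which Acad11 alone was called under all 3 scalings. The Echs1 call was lost without MCD replicate 2 or 4, CD replicate 2 or 4-week STAM replicate 1 (limma adjusted p = 0.0546 to 0.0669). Calls gained by leaving out 1 library were Eci1 without CD replicate 4, Etfb without MCD replicate 4, Etfdh without CD replicate 1 or 4-week STAM replicate 2, Ehhadh without MCD replicate 1 or CD replicate 1 or 2 or 4-week STAM replicate 1 or 4-week Ctrl replicate 4, Decr1 without 4-week STAM replicate 2 and Acot1 without CD replicate 2. Both of these tests use the MCD and CD samples and are not independent of each other.

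Set side by side over the 3 comparisons, no gene was called in all of them. Pex11a was higher in MCD livers and 4-week STAM livers, and Acot2 and Pdk4 in MCD livers and 10-week STAM livers. As deposited, Echs1 and Etfa were lower in MCD livers and 10-week STAM livers. Crot, Etfdh, Hsd17b4 and Decr2 were, as deposited, lower in MCD livers and higher in STAM livers at 10 weeks. None of these lower calls held under both other scalings, and for MCD over CD Crot, Hsd17b4 and Etfa turned positive under both. By the test above the effects of Crot, Etfdh, Hsd17b4 and Decr2 differed between the models, for all but Crot under all 3 scalings. By calls, another 5 genes were higher and 6 lower in MCD livers and were not called in STAM livers, 11 were higher in STAM livers at 10 weeks and were not called in the other comparisons, and 5 were called nowhere. A call in 1 comparison and not in another is no test of the difference. In the test against the 10-week STAM effect, Acot3 and Acot4 of the first 5 genes differed, and Crat, Acadl and Acadm did not pass. Of the 6 lower genes Cpt2, Acad11, Eci1, Acaa2 and Ppara differed in it and Acadvl did not pass, and of the 11 higher genes Cpt1a, Hadh, Decr1 and Bdh1 differed and the other 7 did not pass. In the authors' deposited table of each comparison, adjusted p-values under 0.05 marked 9 of the 36 genes higher and 9 lower for MCD. They marked 1 higher and 0 lower at 4 weeks, and 15 higher and 1 lower at 10 weeks. The share of all genes that these p-values marked is not reported here, so the counts serve only to compare the calls. Of the calls in the authors' deposited table, 7 higher and 9 lower for MCD, 1 at 4 weeks, and 15 higher and 1 lower at 10 weeks were also called in the same direction by limma here. Acot1 and Cpt1b were higher for MCD by the authors' values (log2 fold changes of 1.1 and 1.19) and were not called by limma here.

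Levels per counted length placed Acaa2 and Crot at the top for the diet table. Acaa2 reached 254.9 CPM per kb in MCD and 464 CPM per kb in CD livers, and Crot 262 CPM per kb in MCD and 341 CPM per kb in CD livers. In STAM livers at 10 weeks Acaa1b was first (726 CPM per kb in STAM, 492 CPM per kb in Ctrl livers) and Ehhadh ranked 3 in STAM (426 CPM per kb) and 7 in Ctrl livers (196 CPM per kb). Acot2, Acot3, Cpt1b and Crat were among the 5 lowest in all 6 groups. The coefficient of variation over samples had a median of 12.4% in MCD and 14.5% in CD livers. The median was 7.67% in STAM and 9.87% in Ctrl livers at 4 weeks, and 7.84% in STAM and 14.0% in Ctrl livers at 10 weeks. The most variable genes were Acot2 in MCD (49.5%), Acot1 in CD (71.2%), Pdk4 in STAM (85.7%) and Ctrl (70.5%) livers at 4 weeks, Pdk4 in STAM livers at 10 weeks (91.0%) and Acot3 in Ctrl livers at 10 weeks (83.2%).

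Around the 36 genes, other genes of the same steps were counted in lists. Of 9 genes of ketone body synthesis, use and export, 2 were higher and 3 lower in MCD livers, none was called at 4 weeks, and 4 were higher and 1 lower in STAM livers at 10 weeks. The balance in MCD livers turned to 4 higher and 1 lower with total-read scaling and 2 and 1 with quantile normalization, and at 10 weeks the counts were 6 and 1, and 5 and 1; at 4 weeks 1 gene was called higher with total-read scaling. Acat1, which makes acetoacetyl-CoA, stood at -0.58 (limma adjusted p = 0.00226) in MCD livers, -0.22 (limma adjusted p = 0.321) at 4 weeks and 0.27 (limma adjusted p = 0.0405) at 10 weeks. Its call in MCD livers was lost with total-read scaling (-0.16) and quantile normalization (-0.061), and its call at 10 weeks held under both. Bdh2, a cytosolic relative of Bdh1, was lower in MCD livers (-1.46) and in STAM livers at 10 weeks (-1.49), and Aacs, which activates acetoacetate, rose by 1.58 at 10 weeks.

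Of 13 genes of acyl-CoA synthesis and fatty acid supply, 1 was higher and 8 lower in MCD livers (median -1.07 against 0.07 for all genes), 3 and 7 with total-read scaling. Acsl1, a long-chain acyl-CoA synthetase, was lower in MCD livers (-1.07, limma adjusted p = 7.53e-05) and in STAM livers at 4 weeks (-0.48, limma adjusted p = 0.0078), and was not called at 10 weeks (-0.18, limma adjusted p = 0.382). The others lower by at least 1 in MCD livers were Acsl6 (0 reads in all MCD livers and 0.386 to 0.609 CPM in CD livers), Slc27a5 (-2.35), the fatty acid binding protein Fabp1 (-2.01), the malonyl-CoA producer Acacb (-1.85), Acsl5 (-1.27) and Slc27a2 (-1.18). At 10 weeks 2 of the 13 were higher and 2 lower in STAM livers, and 7 and 1 with total-read scaling or 7 and 2 with quantile normalization.

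Of 18 other peroxisomal oxidation and import genes, 1 was higher and 11 lower in MCD livers, 5 and 8 with total-read scaling. Catalase Cat (-1.52), the thiolase and carrier Scp2 (-1.41), the α-oxidation enzymes Phyh (-1.76) and Hacl1 (-1.75), Pecr (-1.6) and the CoA hydrolase Nudt7 (-2.08) were among the lower genes, and the transporter Abcd2 was higher (1.87). At 4 weeks none of the 18 was higher and 3 were lower, and at 10 weeks 3 were higher and 6 lower, which turned to 8 and 5 with total-read scaling and 6 and 5 with quantile normalization, with Nudt7 at -1.37 and Hacl1 at -1.01. Of 17 peroxisome assembly and division genes none was higher and 6 lower in MCD livers, a split that turned to 5 higher and 0 lower with total-read scaling and was 2 and 7 with quantile normalization. At 4 weeks 0 and 1 of them were called, the 1 under neither other scaling, and at 10 weeks 5 and 7, or 8 and 0 with total-read scaling and 5 and 3 with quantile normalization.

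Of 16 other mitochondrial oxidation genes, none was higher and 11 lower in MCD livers, 3 and 11 with total-read scaling. Among them were Acadsb (-1.35) and Acad8 (-1.11), dehydrogenases of branched-chain amino acid breakdown, Echdc3 (-1.12) and Hsd17b10 (-1.01). At 4 weeks 0 were higher and 2 lower, and at 10 weeks 3 higher and 5 lower, or 10 and 1 with total-read scaling and 6 and 2 with quantile normalization, with Acad12 at 1.56. Of the other acyl-CoA thioesterases, 3 of 8 were higher and 3 lower in MCD livers, 2 of 9 higher at 4 weeks, and 4 of 8 higher and 2 lower at 10 weeks. The counts in MCD livers were 5 and 1 with total-read scaling and 2 and 2 with quantile normalization, both calls at 4 weeks were lost with quantile normalization, and at 10 weeks the counts were 5 and 1, and 4 and 2. Acot6 (1.07 to 2.36 CPM in MCD and 0 to 0.457 CPM in CD livers) and the mitochondrial Acot9 (1.29) were higher in MCD livers and in STAM livers at 10 weeks (2.68 and 1.38). Acot5 was called higher in both, but measured only 0 to 0.314 CPM in MCD livers and 0.0427 to 0.198 CPM in STAM livers at 10 weeks, with 0 reads in all CD and Ctrl livers of those comparisons, and its call in MCD livers was lost with quantile normalization. Of 5 pyruvate dehydrogenase kinases and phosphatases, 1 was higher and 3 lower in MCD livers, with the phosphatase Pdp1 at 1.0, and 1 higher and 1 lower at 10 weeks. In MCD livers the balance turned to 2 higher and 1 lower with total-read scaling and was 1 and 3 with quantile normalization, and at 10 weeks the counts were 2 and 0, and 2 and 1.

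The list of PPARα partners and other targets also held the genes of 2 separate receptors, Ppard and Pparg. Pparg was among its higher genes in MCD livers and at 10 weeks (0.50, limma adjusted p = 0.0054). The list had 8 higher and 5 lower of 21 in MCD livers and 2 higher of 22 at 4 weeks. At 10 weeks 13 were higher and 0 lower of 22, and the median was 0.80 against 0.05 for all genes. With total-read scaling the counts were 11 and 3, 4 and 0, and 18 and 0, and with quantile normalization 9 and 3, 3 and 0, and 14 and 0. Fgf21, a hormone that liver releases in fasting, rose in MCD livers (4.24, limma adjusted p = 1.37e-07) and STAM livers at 10 weeks (3.67, limma adjusted p = 0.00187) and was not called at 4 weeks (1.87, limma adjusted p = 0.126). Cyp4a14, which hydroxylates the end of fatty acids, rose in MCD livers (5.3, limma adjusted p = 0.00198) and was called at neither age in STAM livers (-0.15 with limma adjusted p = 0.777 at 4 weeks, 0.87 with limma adjusted p = 0.182 at 10 weeks). In MCD livers Cyp4a31 (4.39), Cyp4a10 (3.06), Pparg (3.3), the aldehyde dehydrogenase Aldh3a2 (2.5), Vnn1 (1.6) and Ucp2 (1.23) were also higher, and Cyp4a32 (-1.34) and the lipase Mgll (-1.04) lower. In STAM livers at 10 weeks the uncoupling protein genes Ucp3 (0.938 to 3.07 CPM in STAM and 0 to 0.102 CPM in Ctrl livers) and Ucp2 (2.64), Lpin1 (2.41), Cyp4a31 (2.38), Cyp4a32 (1.51), Vnn1 (1.27), Angptl4 (1.04) and Aldh3a2 (1.02) rose, and at 4 weeks Ucp2 (1.02). Members of the Cyp4a family are close copies and their counts are uncertain.

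**Figure D5:**
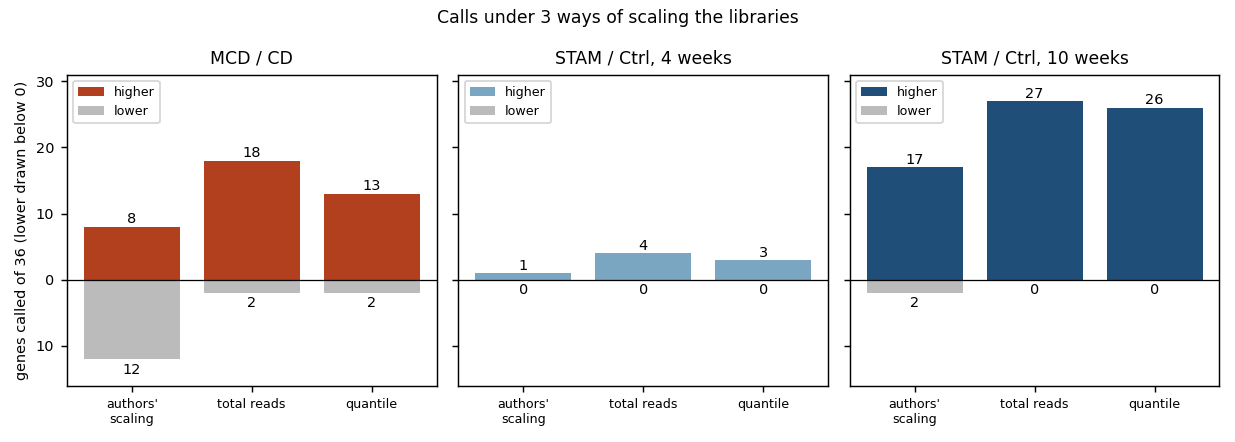
Number of the 36 genes called higher (bars above 0) and lower (bars below 0) by limma in each comparison with the authors' scaling, total-read scaling and quantile normalization. For MCD over CD the counts were 8 and 12, 18 and 2, and 13 and 2. At 10 weeks they were 17 and 2, 27 and 0, and 26 and 0. Of all 15312 genes, 6541, 8810 and 6233 were called for MCD over CD (52.9%, 86.1% and 49.8% of them higher). At 10 weeks 7319, 7972 and 6328 were called (53.0%, 88.1% and 45.7% higher).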

How the data were processed

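The 36 genes, their roles and the lists were chosen with earlier results of these data known. Per the labels' protocols, stranded poly(A) libraries of liver RNA were sequenced from both ends; STAR 2.4.2a and mm10 are named in the submitters' processing notes, and the sources used here name no read counter. The deposited values are log2 CPM with a prior of 0.25 reads, scaled by the authors within each table; this was read from the values, of which 100% gave whole reads within 0.05 reads. The authors' log2 fold changes and their adjusted p-values are further columns, per the file headers, and are used only where named. Recovered reads were 16.2 to 25.9 M per library, and a floor of 3 reads covers counting error alone. No replicate pair agreed within sampling noise (lowest chi-square per degree of freedom 11.9).

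limma 3.58.1 (trend, robust variance; statmod 1.5.0, R 4.3.3) was run separately for each comparison on the 15312 genes whose mean exceeded the 25th percentile, and all 36 genes passed this filter. Calls are two-sided at a Benjamini-Hochberg adjusted p under 0.05 over all genes tested. Differences between effects came from 1 fit over 4 groups. The code was tested on simulated data. Values in every library are given for the 8 called genes with the largest change per comparison and for Cpt1a, Acadm, Hadha, Ehhadh, Acaa1b, Acot1, Pdk4, Bdh1, Ppara and Pex11a in at least 1 comparison; list genes are named if called with a change of at least 1 or if they are Acat1, Fgf21, Cyp4a14 or Acsl1, and some genes under this rule are not reported here. Echs1 and Pdk4 at 4 weeks were chosen after their values were seen. Alternatives were total-read scaling, quantile normalization, no filter, a prior of 2 reads, voom, a replicate block and leaving out each library. Transcript overlaps were found with BLAST 2.17.0 and identities with Biopython 1.88.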

Additional observations from a re-analysis of the deposited data

Results flagged for a closer look

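In 12 of 216 sets of replicates, 1 per gene and group, a single library stood apart, measured as the gap to its nearest neighbour divided by the range of the group on the log2 scale. Chance alone gives about 1 such set in 20. In MCD livers, Hadha of replicate 3 was high at 348.7 CPM, beside 308.7 to 314.1 CPM in the others (gap over range 0.859). In CD livers, Cpt1b of replicate 4 (0.884) and Crot of replicate 1 (0.878) were low. In STAM livers at 4 weeks, Acads of replicate 5 was high (0.713), and Decr1 of replicate 2 (0.852) and Pex11a of replicate 3 (0.788) were low. Ctrl replicate 1 at 4 weeks was low for Hadha (0.736), Decr1 (0.744) and Bdh1 (0.713). STAM replicate 5 at 10 weeks was high for Acot2 (0.731) and Pdk4 (0.847), and Ctrl replicate 3 at 10 weeks was low for Etfb (0.824).

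The effect of STAM at 10 weeks minus that at 4 weeks differed for 12 genes, in log2 units: Cpt1a (0.632), Acadl (0.415), Acads (0.39), Hadhb (0.443), Hadh (0.404), Etfdh (0.455), Ehhadh (1.42), Acaa1a (0.476), Acaa1b (0.701), Decr2 (0.389), Acot2 (1.66) and Bdh1 (0.74). The MCD effect minus the 10-week STAM effect differed for 16: Cpt1a (-0.737), Cpt2 (-0.347), Crot (-0.775), Acad11 (-1.06), Hadh (-0.518), Eci1 (-0.559), Etfdh (-0.854), Hsd17b4 (-0.455), Acaa2 (-0.682), Decr1 (-0.609), Decr2 (-0.981), Acot2 (2.18), Acot3 (3.4), Acot4 (1.27), Bdh1 (-0.757) and Ppara (-0.55). The MCD effect minus the 4-week STAM effect differed for 13: Cpt2 (-0.578), Acadl (0.487), Acadm (0.388), Acad11 (-1.08), Echs1 (-0.358), Hsd17b4 (-0.431), Acaa2 (-0.757), Decr2 (-0.592), Acot2 (3.84), Acot3 (4.44), Acot4 (1.58), Ppara (-0.741) and Pex11a (0.511).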

How the results depend on the processing

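Scaling moved the counts most. With total-read scaling, 18 of the 36 genes were higher and 2 lower for MCD over CD. At 4 weeks 4 were higher, and at 10 weeks 27 were higher and 0 lower. Over all 15312 genes, 8810 were then called for MCD (86.1% of them higher), 1650 at 4 weeks (83.7%) and 7972 at 10 weeks (88.1%). The effect of STAM was larger at 10 weeks for 19 of the 36 genes. The MCD effect was above the 4-week STAM effect for 11 and below it for 2. Beside these, 3437 of all 15022 genes were called for the age difference (84.3% of them higher). Against the 4-week STAM effect 5639 of 14962 were called (82.2% above). With quantile normalization, 13 of the 36 genes were higher and 2 lower for MCD. At 4 weeks 3 were higher, and at 10 weeks 26 were higher and 0 lower. The MCD effect was below the 10-week STAM effect for 8. It was above the 4-week STAM effect for 10 and below it for 2. Over all genes tested, 6233 were called for MCD (49.8% of them higher), 1431 at 4 weeks (59.8%) and 6328 at 10 weeks (45.7%). Against the 10-week STAM effect 4417 were called (51.1% above), and against the 4-week STAM effect 3871 (50.1%). With no filter 1 gene was lower at 4 weeks, and voom left 1 gene above in the test of the MCD effect against the 10-week STAM effect.

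Of the 21 genes with a negative value for MCD over CD, 15 turned positive with total-read scaling, among them Cpt2 (0.038), Crot (0.039), Acadvl (0.17), Ech1 (0.39), Eci1 (0.11), Etfa (0.087), Hsd17b4 (0.17), Decr1 (0.28) and Bdh1 (0.37), and 12 with quantile normalization, among them Crot (0.32), Acadvl (0.19), Etfa (0.086), Hsd17b4 (0.19) and Bdh1 (0.43). At 10 weeks all 6 negative genes turned with total-read scaling, among them Cpt2 (0.25), Echs1 (0.030) and Etfa (0.077), and 5 with quantile normalization, among them Cpt2 (0.20) and Etfa (0.025). At 4 weeks 8 and 7 of 21 turned. No positive value turned negative in these 3 comparisons under either scaling. Acadvl in the MCD effect minus the 4-week STAM effect stood at 0.29 with quantile normalization. The shift of the median of all genes under total-read scaling is part of its construction; the cause of the other changes was not tested.

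Leaving out 1 library at a time gave 6 to 9 genes higher and 8 to 11 lower for MCD, 1 higher and 0 to 1 lower at 4 weeks, and 15 to 19 higher and 2 to 3 lower at 10 weeks. It gave 8 to 13 higher for the age difference, 1 to 4 above and 11 to 15 below for the MCD effect against the 10-week STAM effect, and 6 to 8 above and 6 to 9 below against the 4-week STAM effect. Replicate numbers did not pair the samples: deviations of same-numbered samples correlated at -0.122 to 0.00824, and no sample correlated best with its own number. With a replicate block, 7 genes were lower for MCD and 1 at 10 weeks. Depth limits Cpt1b, Acot1, Acot2 and Acot3 most, as they lay at a few CPM or less in CD livers.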
